A study of Mus musculus with 10 samples.

Results

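Iron leaves the cells of the body through a single known exporter, ferroportin, and the liver sets how much of it stays at the cell surface by secreting hepcidin, a small peptide hormone that binds ferroportin and has it degraded. Hepatocytes adjust hepcidin to the iron bound to transferrin in blood, through the BMP and SMAD pathway with the sensors HFE and transferrin receptor 2, and raise it in inflammation through IL-6 and STAT3. Mice carry a pair of hepcidin genes, Hamp and Hamp2, that lie close together on chromosome 7. Hamp encodes the hormone that acts on ferroportin, while no such role is established for Hamp2.

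The genes examined were the hepcidins Hamp and Hamp2, the blood iron carrier Trf, the receptors Tfrc and Tfr2, the sensor component Hfe, the exporter ferroportin (Slc40a1), the ferritin heavy chain (Fth1), the ferroxidase ceruloplasmin (Cp) and the ligand Bmp6. They are 10 of the 19057 genes with a named probe on the array, and all 18 probes annotated to them were taken from the 45281 probes measured. The arrays were hybridised with total liver RNA of mice of the inbred strain labelled 129S1/SvImJ;C57Bl/6J (129/B6). Of these, 5 mice had eaten the Western diet, a high fat feed with cholesterol, and drunk sugar water with fructose and glucose (WD SW), and 5 had eaten a chow diet (CD) with plain water. Both groups were on their diets for 8 weeks, and by the study's account of its diets they were male and 8 to 12 weeks of age when feeding began.

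Values below are normalized log2 signals, on which a difference of 1 is a doubling of the fluorescence, and differences are WD SW minus CD. A probe was tested if it stood above the array background on at least 5 of the 10 arrays. Of the 18 probes, 16 were tested, 15 of them above background on all 10 arrays, and 9 of the 10 genes had a tested probe. Hepatocyte markers (Alb, Ttr, Apoa1, Serpina1a, Cps1) were all above background, with a summed log2 level of 15.97 to 16.16 in WD SW and 16.02 to 16.25 in CD. The brightest, Ttr and Apoa1, weigh most in this sum, while Alb (-1.93) and Serpina1a (-1.10) were lower in WD SW. The arrays differed in brightness. The signal at the 95th percentile was 870 to 1023 on the WD SW arrays and 921 on CD replicate 1, but 403 to 548 on CD replicates 2 to 5, and array brightness and diet were therefore partly confounded. CD replicates 3 and 4 had the highest summed level of 15 acute phase genes, at 17.45 and 17.69, while CD replicates 1, 2 and 5 had 15.83 to 16.59 and the WD SW arrays 15.94 to 16.52. Only CD replicates 3 and 4 carried the number 13 in their sample titles. The labels do not give its meaning, and whether these CD arrays are independent of each other is not known. The part of brightness and of acute phase genes in each result was not tested, but for the 10 genes values with array brightness as a covariate and without these CD arrays are given where they end a call.

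The promoters of the hepcidins are shown because Hamp and Hamp2 went opposite ways in these livers, and because the Hamp promoter holds the elements through which BMP and IL-6 signals are known to act. The windows are the 250 bases before each RefSeq transcription start, from build GRCm38.p6, on the minus strand of chromosome 7, at chr7:30944030-30944279 for Hamp and chr7:30924182-30924431 for Hamp2. Capitals mark the hexamer at the position of the Hamp BMP-responsive element and the STAT site after it.
Hamp: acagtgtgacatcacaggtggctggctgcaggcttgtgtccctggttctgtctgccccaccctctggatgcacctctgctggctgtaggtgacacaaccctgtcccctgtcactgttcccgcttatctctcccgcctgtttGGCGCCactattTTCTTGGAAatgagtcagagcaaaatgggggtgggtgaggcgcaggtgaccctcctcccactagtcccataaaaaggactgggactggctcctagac
Hamp2: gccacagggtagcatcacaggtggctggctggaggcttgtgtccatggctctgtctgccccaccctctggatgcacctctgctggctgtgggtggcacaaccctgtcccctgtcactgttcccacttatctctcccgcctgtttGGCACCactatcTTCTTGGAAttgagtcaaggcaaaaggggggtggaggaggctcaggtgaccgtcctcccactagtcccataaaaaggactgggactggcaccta
Aligned to each other, the windows had 227 identical bases, 20 substitutions and 6 bases opposite a gap, an identity of 91.9% over paired bases. The STAT site TTCTTGGAA was the same in both, 97 to 89 bases before the start in Hamp and 94 to 86 bases before it in Hamp2. The hexamer was GGCGCC in Hamp, 109 to 104 bases before the start, and carried the substitution G4A in Hamp2, counted from 1 at the 5′ end of the hexamer. A search of both strands for GGCGCC and for TTCNNNGAA, motifs that do not overlap here, found the first in 9.59% and the second in 7.02% of 32851 promoter windows of this length. Among the 8 of the 10 genes with a window, the first was found at Hamp and Tfrc and the second at Hamp and Hamp2. Trf and Slc40a1 had no window. The strain studied may differ from the reference genome at these bases, and a match of letters is not a measured site.

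Hamp2 was higher in WD SW while Hamp was lower. Hamp2 (ILMN_2852624) had log2 signals of 10.07, 10.03, 10.61, 9.32 and 9.76 on WD SW replicates 1 to 5. On CD replicates 1 to 5 the Hamp2 signals were 7.41, 7.41, 6.26, 5.49 and 8.29. Each WD SW array lay above each CD array, and the CD arrays spread more widely, with replicates 3 and 4 lowest. Before normalization the Hamp2 signal was 901 to 1965 in WD SW and 93 to 274 in CD, where the background lay between 82.0 and 88.1. The mean Hamp2 signal was 9.96 ± 0.47 in WD SW and 6.97 ± 1.10 in CD (SD, n = 5), a difference of 2.99 ± 0.41 (SE), or 7.92-fold, with limma's adjusted p = 0.000124. The 95% interval of that difference was 2.12 to 3.86. The raw Hamp2 signal was highest in the CD group on replicate 1 (274) and lowest in the WD SW group on replicate 4 (901). The part of array brightness in the Hamp2 difference was not tested. With array brightness as a covariate the difference was 2.30 and the adjusted p was 0.0622. Over all alternatives the Hamp2 difference ran from 2.25, with CD replicates 3 and 4 left out, to 3.63, with median scaling, and it was 2.45 without background correction.

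Hamp (ILMN_1236304), the gene of the iron hormone itself, had log2 signals of 12.81, 13.04, 13.99, 13.56 and 13.27 on WD SW replicates 1 to 5. On CD replicates 1 to 5 they were 14.29, 14.40, 13.74, 13.64 and 14.12. The groups overlapped, since WD SW replicate 3 lay above CD replicates 3 and 4, whose Hamp signals were the lowest of the CD group. The mean Hamp signal was 13.33 ± 0.46 in WD SW and 14.04 ± 0.33 in CD (SD, n = 5), and Hamp fell by 0.70 ± 0.22 (SE) on the log2 scale, 1.63-fold, with limma's adjusted p = 0.0229 and a 95% interval of -1.17 to -0.24. In a bulk sample, less RNA per cell and fewer cells of a type cannot be told apart. The Hamp call was lost without WD SW replicate 1 (difference -0.58, adjusted p = 0.0666), without WD SW replicate 2 (-0.63, adjusted p = 0.0564) and without CD replicate 2 (-0.61, adjusted p = 0.0560). It was also lost with array brightness as a covariate (-0.92, adjusted p = 0.155), with CD replicate 1 as the only control (-0.88, adjusted p = 0.122) and with median scaling of the arrays (-0.44, adjusted p = 0.183), and was -1.13 with scaling to the median of the tested probes.

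**Figure D1:**
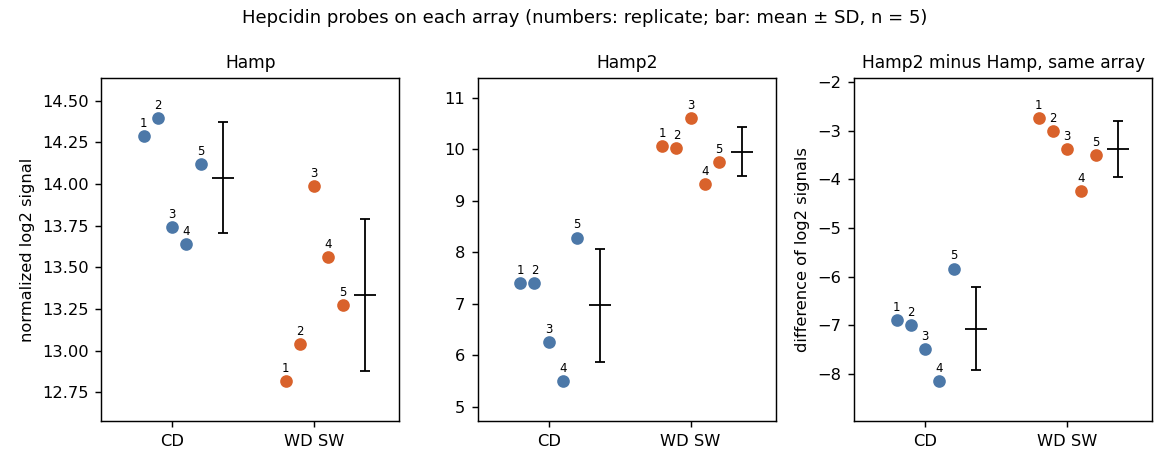
Normalized log2 signal of the Hamp probe (left) and the Hamp2 probe (middle) and their difference on the same array (right), for 5 CD and 5 WD SW livers; points are arrays with their replicate number and bars are the mean ± SD. Hamp overlaps between the diets, whereas Hamp2 lies at 5.49 to 8.29 in CD and 9.32 to 10.61 in WD SW.

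The diet differences of Hamp and Hamp2 were compared within each array, where a change of scale common to both probes cancels. A change that acts differently on a probe near background, such as Hamp2 in CD, and on a bright probe such as Hamp does not cancel. The part of array brightness in this comparison was not tested. The Hamp2 minus Hamp difference was -2.74, -3.01, -3.38, -4.24 and -3.51 on WD SW replicates 1 to 5. It was -6.88, -6.99, -7.48, -8.15 and -5.83 on CD replicates 1 to 5, with no overlap between the diets. The means were -3.38 ± 0.57 in WD SW and -7.07 ± 0.85 in CD (SD, n = 5), so that Hamp2 relative to Hamp was 3.69 higher, or 12.9-fold. An exact permutation test (two-sided, all assignments of the diets) gave p = 0.00794, the smallest value possible with 5 against 5 arrays. It treated the arrays as exchangeable, although arrays within a diet shared numbers in their sample titles. How far each probe separates Hamp from Hamp2 was not tested. Across the 10 arrays the log2 signals of Hamp and Hamp2 had a Pearson r of -0.46, and their deviations from the diet means an r of 0.51, given as descriptions of arrays that share a diet and a normalization. Within CD both genes were lowest on replicates 4 and 3.

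The genes most like each hepcidin were ranked by Pearson r over the 10 arrays, as a description. Ranking 10187 genes over so few arrays yields some high r by selection alone, so these values are no evidence of shared control. For Hamp2 they were Abcg5 (r = 0.98), a sterol transporter, Sipa1l2 (r = 0.98) and Arrdc4 (r = 0.97), and Abcg5 was itself 2.28 higher in WD SW on the log2 scale. After the diet means were removed the closest to Hamp2 were Ugt1a2 (r = 0.97), the histidine ammonia-lyase gene Hal (r = 0.96) and Etnppl (r = 0.95). For Hamp they were Naa80, Rhot2 and Ces3b (r = 0.92, 0.92 and 0.91), and after removal of the diet means Csnk1e, Apol9b and Vars (r = 0.92, 0.91 and 0.91).

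Transferrin, the protein that carries iron in blood and is made by hepatocytes, was higher in WD SW. Trf (ILMN_2485323) had log2 signals of 14.67, 14.18, 14.48, 14.87 and 14.53 on WD SW replicates 1 to 5, and 13.26, 12.72, 12.98, 13.96 and 12.49 on CD replicates 1 to 5. The groups did not overlap, and CD replicate 4 came closest to the WD SW arrays. The means were 14.54 ± 0.25 and 13.08 ± 0.57 (SD, n = 5), a difference of 1.46 ± 0.23 (SE), 2.75-fold, with limma's adjusted p = 0.000374. Trf was the only one of the 16 probes that passed in each of the 26 alternatives run, with differences of 0.88 to 1.63.

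The iron exporter ferroportin was also higher. Slc40a1 (ILMN_2747923), which hepatocytes and Kupffer cells both use, had log2 signals of 12.53, 12.68, 12.86, 12.77 and 12.87 on WD SW replicates 1 to 5. On CD replicates 1 to 5 they were 12.07, 12.27, 11.95, 11.25 and 12.64. The WD SW arrays lay close together, and CD replicate 5 overlapped them while CD replicate 4 was lowest. The means were 12.74 ± 0.14 and 12.04 ± 0.51 (SD, n = 5), a difference of 0.70 ± 0.21 (SE), 1.63-fold, with limma's adjusted p = 0.0180. The call was lost when CD replicates 3 and 4 were left out (0.41, adjusted p = 0.0888), with array brightness as a covariate (0.55, adjusted p = 0.398), with CD replicate 1 standing for the controls (0.65, adjusted p = 0.0738) and with scaling to the median of the tested probes (0.44, adjusted p = 0.152), while median scaling over all probes gave 1.14. Of the Kupffer cell markers, 6 of 8 were tested, 1 was higher (Csf1r) and 1 lower (Cd163), Cd5l and Marco were not above background on enough arrays, and their summed log2 level was 10.67 to 11.31 in WD SW and 10.16 to 11.41 in CD. The part of these cells in the ferroportin signal was not tested. The other ferroportin probe (ILMN_1238359) was not well above background on any array.

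Hfe encodes a membrane protein that takes part in sensing transferrin iron upstream of hepcidin, and its probes went opposite ways. Probe ILMN_2592519 had log2 signals of 6.33, 5.84, 5.90, 6.34 and 5.99 on WD SW replicates 1 to 5, and 5.76, 5.46, 5.58, 5.20 and 5.74 on CD replicates 1 to 5. These did not overlap, although CD replicate 4 was not above background and all the signals were dim. The difference was 0.54 ± 0.15 (SE) with limma's adjusted p = 0.0169. Probe ILMN_2870696 had log2 signals of 8.73, 7.79, 8.19, 8.52 and 8.17 on WD SW replicates 1 to 5, and 8.95, 8.94, 8.77, 8.37 and 9.09 on CD replicates 1 to 5. Here the groups overlapped, CD replicate 4 being again the lowest of its group, and the difference was -0.54 ± 0.19 (SE) with limma's adjusted p = 0.0373. With median scaling it was 0.23 (adjusted p = 0.506), which is -0.22 relative to the median of all tested probes under that scaling. The within-array difference of these probes was 1.08 higher in WD SW (p = 0.00794, exact permutation test, two-sided, chosen after the values were seen; the smallest p possible here). No direction for Hfe as a gene follows from probes that disagree, and the transcript each one reads was not determined.

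Neither Hfe call was firm. That of ILMN_2592519 was lost without WD SW replicate 1 (0.46, adjusted p = 0.0528), without WD SW replicate 4 (0.45, adjusted p = 0.0540) and, at 0.47 and an adjusted p of 0.0679, when CD replicates 3 and 4 were left out. That of ILMN_2870696 was lost without WD SW replicates 2, 3 or 5 or CD replicates 1, 2, 3 or 5, left out singly, with differences of -0.42 to -0.56 and adjusted p of 0.0569 to 0.0966. Both calls were also lost with array brightness as a covariate (0.29 and -0.78), against CD replicate 1 alone (0.39 and -0.67) and with scaling to the median of the tested probes (0.33 and -0.46), and that of ILMN_2870696 with cyclic loess (-0.47) and the title number as a block (-0.56).

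**Figure D2:**
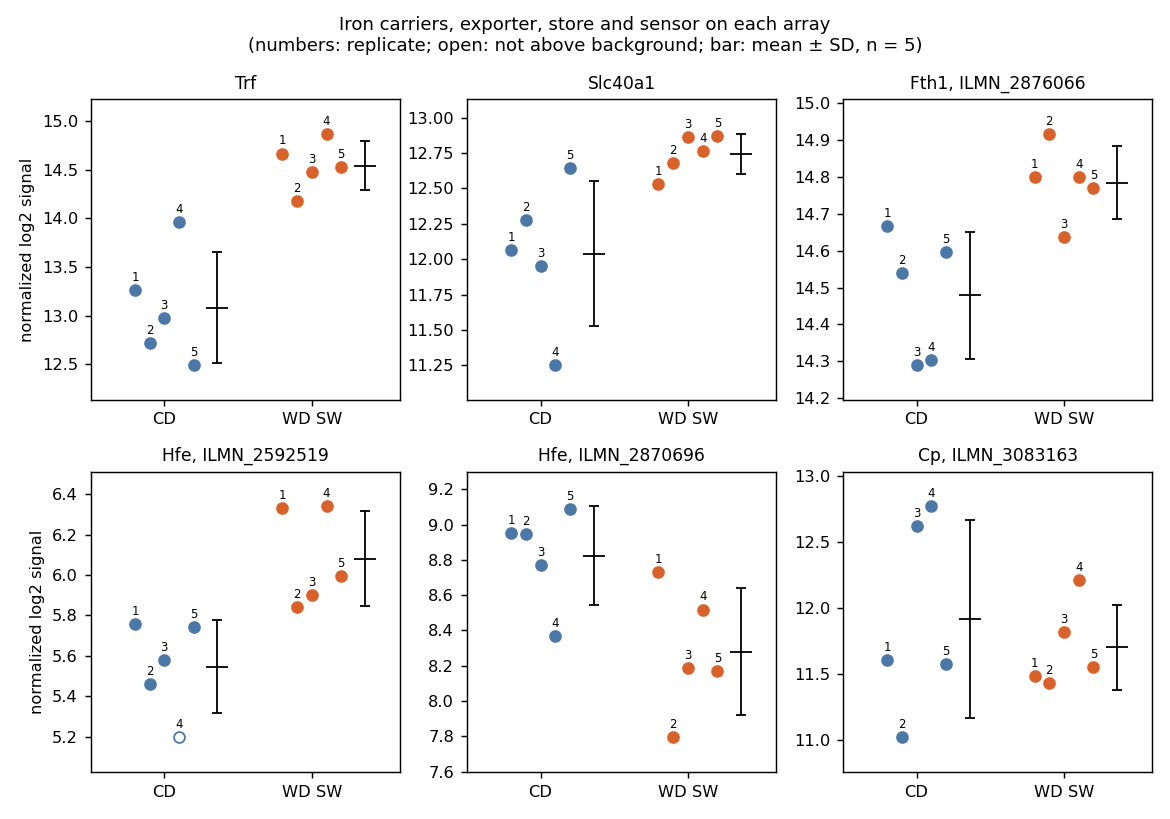
Normalized log2 signal of 6 probes on each of 5 CD and 5 WD SW arrays; points are arrays with their replicate number, open where not above background, and bars are the mean ± SD. Trf and Hfe ILMN_2592519 separate the diets, Hfe ILMN_2870696 overlaps with a lower WD SW mean (0.23 higher with median scaling, a difference that did not pass), and Cp is highest on CD replicates 3 and 4.

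The transferrin receptors did not pass the test, except on some probes with median scaling. Tfrc, the receptor through which most cells take up transferrin and whose transcript is stabilised when a cell lacks iron, ranged from 7.46 to 8.42 in WD SW and 7.32 to 8.39 in CD on ILMN_2619848. On ILMN_2860804 it ranged from 7.93 to 8.71 and from 8.01 to 8.97. Both ranges overlapped nearly in full, and the differences were 0.11 (95% interval -0.36 to 0.58) and -0.01 (95% interval -0.44 to 0.42) with limma's adjusted p of 0.734 and 0.976. Tfr2, the hepatocyte receptor that works with HFE as an iron sensor, ranged on ILMN_2450491 from 10.10 to 10.49 in WD SW and from 10.19 to 10.61 in CD. Its difference there was -0.19 ± 0.14 (SE, adjusted p = 0.296), and on the dimmer ILMN_1227831 it was 0.25 ± 0.16 (SE, adjusted p = 0.241). With median scaling, which put the median of all tested probes at 0.46, both Tfrc probes passed as higher (0.93 and 0.80, adjusted p = 0.00364 and 0.0135), as did Tfr2 ILMN_1227831 (0.76, adjusted p = 0.00244). Relative to that median the values were 0.47, 0.34 and 0.31.

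Ferritin stores iron inside the cell as a shell of heavy and light chains. The heavy chain, Fth1, was bright on both of its probes, with log2 signals of 14.64 to 14.92 in WD SW and 14.29 to 14.67 in CD on ILMN_2876066. On ILMN_2876071 they were 14.61 to 14.95 and 14.50 to 14.76. The WD SW ranges lay a little above the CD ranges but overlapped them, and the differences of 0.31 ± 0.13 and 0.16 ± 0.12 (SE) had limma's adjusted p of 0.0829 and 0.328. ILMN_2876066 passed as higher without background correction (0.30, adjusted p = 0.0237), with a larger background offset (0.30, adjusted p = 0.0301), with a trended and robust variance (adjusted p = 0.0416) and without CD replicate 1 (0.36, adjusted p = 0.0474). The direction turned with the scaling: when the arrays were scaled to the median of the tested probes, the Fth1 differences were -0.41 (adjusted p = 0.0372) and -0.63 (adjusted p = 0.00222). That scaling also lowered the median difference of all tested probes, so part of this fall is shared with probes at large.

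Ceruloplasmin is a copper enzyme of plasma that oxidises exported iron so that transferrin can bind it, and it belongs to the acute phase proteins. The brightest Cp probe (ILMN_3083163) had log2 signals of 11.48, 11.44, 11.82, 12.21 and 11.55 on WD SW replicates 1 to 5 and 11.60, 11.02, 12.62, 12.77 and 11.58 on CD replicates 1 to 5. CD replicates 3 and 4, the arrays with the most acute phase signal, were the highest of all 10. The difference was -0.22 ± 0.29 (SE) with limma's adjusted p = 0.603, and 0.30 with CD replicates 3 and 4 left out (adjusted p = 0.311). The other 3 Cp probes were dimmer, with differences of -0.30, 0.18 and -0.23 and adjusted p of 0.367 to 0.445. Bmp6, a ligand that sinusoidal endothelial cells make in response to iron, was above background on 1 array, WD SW replicate 3, and was not tested.

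Of the 16 tested probes, 6 passed an adjusted p of 0.05 over all probes tested, 4 higher (Hamp2, Trf, Slc40a1 and Hfe ILMN_2592519) and 2 lower (Hamp and Hfe ILMN_2870696), the last at 0.23 with median scaling, where it did not pass. The diets differed widely in these livers: 31.2% of the 17368 tested probes passed. As shares of all tested probes, 17.2% passed as higher and 14% as lower. The count of 6 of 16 was thus close to the background. Groups that did not overlap were found for 3 of the 16 probes, against 20.9% of all probes. The median difference was 0.14 over the 16 probes and -0.01 over all probes.

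**Figure D3:**
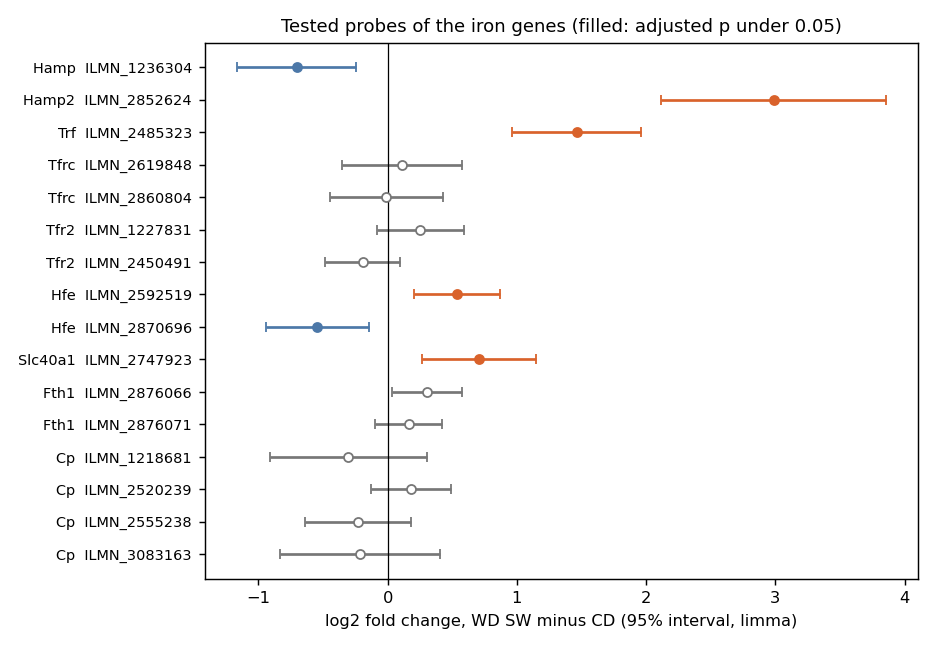
Log2 fold change (WD SW minus CD) of each of the 16 tested probes with its 95% interval from limma, filled where the adjusted p was under 0.05 (orange higher, blue lower in WD SW). Hamp2 (2.99) and Trf (1.46) stand farthest from 0, and the Hfe probes lie on opposite sides of it (with median scaling both lie above 0, one of them at 0.23, which did not pass).

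**Figure D4:**
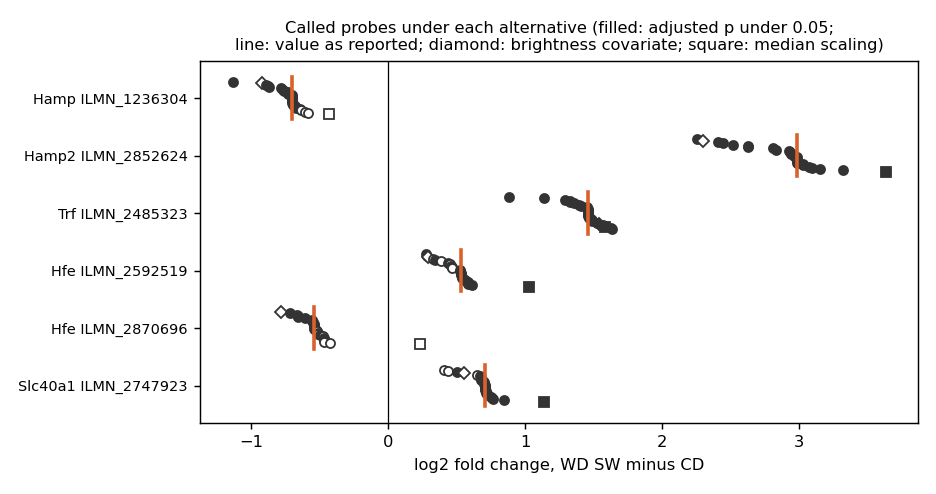
Log2 fold change (WD SW minus CD) of the 6 called probes under each alternative processing or left-out array; points are alternatives, filled where the adjusted p was under 0.05, and the vertical line is the value as reported. Trf stays filled throughout and Hamp2 opens only with array brightness as a covariate, while Hfe ILMN_2870696 crosses 0 with median scaling.

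Genes around the hepcidins were described by 6 lists with 1 probe per gene, the brightest, and read against all genes, of which 29.4% of 10187 passed, 14.2% higher and 15.2% lower, with a median difference of -0.05. Among genes that control hepcidin, 19 of 24 were tested, 2 were higher, 5 lower and 12 did not pass, with a median of -0.12. Fgl1, a liver protein that binds BMP6 and so lowers hepcidin, fell by 1.75 on the log2 scale. Its signal was 11.31 to 12.05 in WD SW and highest on CD replicates 3 and 4 (14.40 and 14.54), and without those arrays the Fgl1 difference was -1.13 (adjusted p = 0.0126). The IL-6 receptor Il6ra fell by 1.22, from 6.43 to 8.20 in CD to 5.82 to 6.48 in WD SW, and Stat3, which carries the IL-6 signal to the hepcidin promoter, fell by 1.09. Their limma adjusted p were 0.00249, 0.00481 and 0.00202, but a fainter Il6ra probe differed by -0.06 and a fainter Stat3 probe by 0.20. With median scaling the calls of Il6ra (-0.44, adjusted p = 0.113) and Stat3 (-0.42, adjusted p = 0.132) were lost. The shared receptor subunit Il6st (0.55) and the transcription factor Atoh8 (0.47) were higher. Tmprss6, the protease that restrains hepcidin, differed by 0.51 ± 0.27 (SE, adjusted p = 0.169) and by 0.98 on its other probe, and Hjv, Bmp2, Smad7 and Erfe were not above background on enough arrays to be tested.

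Among genes for iron entry, exit and storage in the cell, 15 of 18 were tested, 2 were higher, 3 lower and 10 did not pass, with a median of 0.03. The iron chaperone Pcbp1, which delivers iron to ferritin, was higher by 1.55 (adjusted p = 0.000793), and Ncoa4, the receptor that takes ferritin to the lysosome, was higher by 0.75 (adjusted p = 0.00705). The ferritin light chain Ftl1 was lower by 0.64 (limma, adjusted p = 0.00217), with 13.27 to 13.54 in WD SW and 13.80 to 14.25 in CD. Flvcr1, described as a heme exporter, differed by -0.78 (with median scaling 0.03, or -0.42 relative to the median of all probes). The iron importer Slc11a2 differed by -0.65 (with median scaling 0.13, or -0.33 relative to that median), and another Slc11a2 probe by 0.55. Among iron regulatory proteins and further transcripts with iron-responsive elements, 8 of 10 were tested, 2 were higher (Fbxl5 and Cdc14a), 2 lower (Ftl1 and Slc11a2 again) and 4 did not pass, with a median of 0.06. Fbxl5, which removes iron regulatory protein 2 when iron is plentiful, was higher by 0.80 (adjusted p = 0.000476). Cdc14a, not well above background on any CD array, was at least 1.15-fold higher, and it entered the test only through its WD SW arrays.

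Heme genes moved in both directions. For heme synthesis and breakdown 13 of 14 genes were tested, 5 were higher, 2 lower and 6 did not pass, with a median of 0.10. Alas1, the rate-limiting enzyme of heme synthesis in liver, was higher by 1.21 (limma, adjusted p = 0.00472), with 12.42 to 13.35 in WD SW and 10.49 to 12.05 in CD. The biliverdin reductase Blvrb (0.98) and the heme-binding protein Hebp1 (0.93) were higher, although a fainter Blvrb probe differed by -0.15. The coproporphyrinogen oxidase Cpox (-0.60, with median scaling 0.09, or -0.37 relative to the median) and the other biliverdin reductase, Blvra (-0.47, with median scaling 0.30, or -0.16 relative to the median) were lower. Of 6 listed names of genes that scavenge heme and hemoglobin 5 were tested, 1 was higher, 2 lower and 2 did not pass, with a median of 0.38. The other name, Cd91, is a synonym of Lrp1, which was tested. The hemoglobin binder haptoglobin (Hp) was higher by 0.97 (adjusted p = 0.0170). Its macrophage receptor Cd163 was lower by 2.02 (adjusted p = 0.000223), with 5.50 to 6.20 in WD SW and 6.86 to 8.70 in CD, and the hemopexin receptor Lrp1 was lower by 0.90 (adjusted p = 0.00219), a call lost with median scaling (-0.085, adjusted p = 0.704). For mitochondrial iron and iron-sulfur clusters 13 of 19 were tested, 3 were higher, 2 lower and 8 did not pass, with a median of -0.14. The higher genes build or pass on iron-sulfur clusters: the glutaredoxin Glrx5 (0.78), the sulfur donor Nfs1 (0.59) and the scaffold Iscu (0.57). The lower genes were the cluster carrier Nfu1 (-0.50, with median scaling 0.31, or -0.15 relative to the median) and the ferredoxin Fdx2 (-0.49, with median scaling -0.063, adjusted p = 0.784). A fainter Nfs1 probe differed by -0.36. With array brightness as a covariate 24 of the 25 list genes named here lost their call, all but Atoh8, and 19 did so when CD replicate 1 was the sole control. Brightness and diet were partly confounded, so a call lost with the brightness covariate can reflect a wider error as well as a smaller difference. Leaving out CD replicates 3 and 4 ended the calls of Slc11a2 (-0.44, adjusted p = 0.0847), Blvra (-0.41, adjusted p = 0.111) and Fdx2 (-0.47, adjusted p = 0.0513). Scaling to the median of the tested probes ended those of Hp (0.49), Iscu (0.33), Cdc14a (0.073), Atoh8 (0.049), Blvra (-0.40) and Nfu1 (-0.39). Atoh8, Cpox and Blvra also lost their calls when single arrays were left out. With the title number as a random block 3 of the 25 genes lost their call and 22 kept it.

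**Figure D5:**
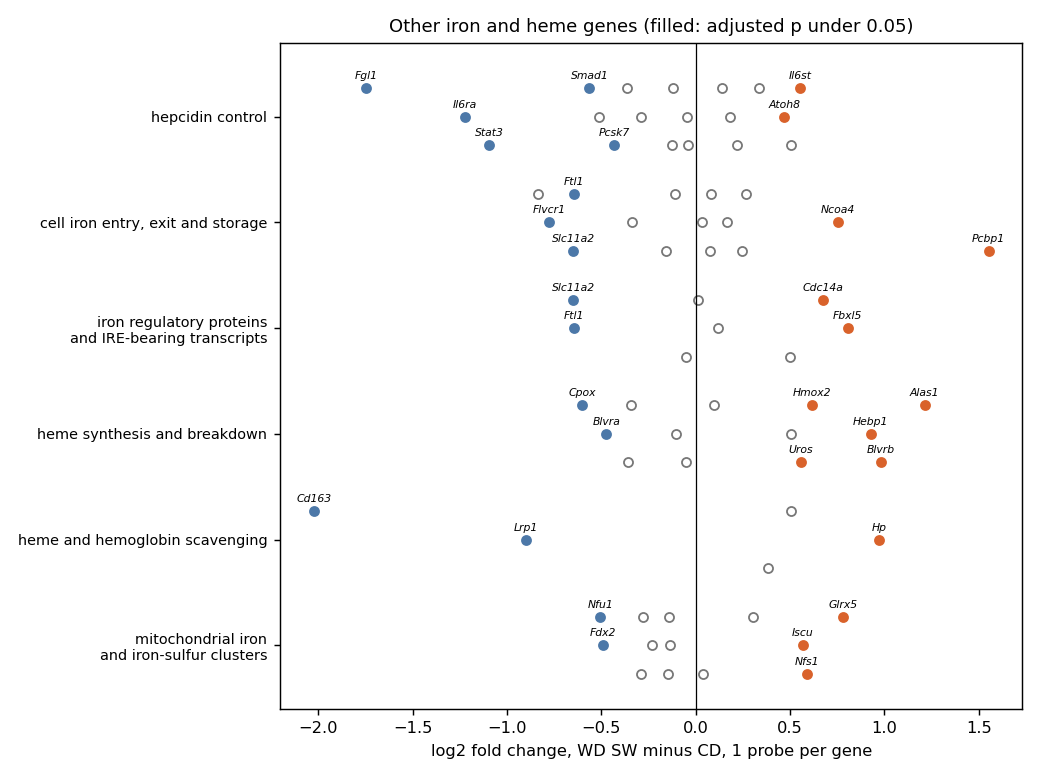
Log2 fold change (WD SW minus CD) of each tested gene of 6 lists of iron and heme genes, 1 probe per gene; filled points have an adjusted p under 0.05 and are named, and a gene in more than 1 list appears in each. Pcbp1 (1.55) and Alas1 (1.21) lie farthest to the right and Cd163 (-2.02) and Fgl1 (-1.75) farthest to the left, while Slc11a2, Flvcr1, Cpox, Blvra and Nfu1 lie above 0 with median scaling but below the median of all probes, which that scaling puts at 0.46.

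Blood in the tissue could add red cell transcripts. Of 10 erythroid markers 6 were tested and 2 were higher, Hba-a1 by 0.92 and Hbb-bt by 1.10 (limma, adjusted p = 0.00497 and 0.00122), while Alas2, the erythroid enzyme of heme synthesis, differed by -0.05. The red cell membrane gene Slc4a1 differed by -0.74 (adjusted p = 0.0544) and Hbb-b2 by -0.15, both on dim probes with WD SW means of 5.25 and 5.16. The tested Hbb-bt probes ran from -0.77 to 1.56. Hbb-bs differed by 0.21 and did not pass, and its 6 tested probes ran from 0.19 to 1.94. The summed log2 level of the tested erythroid markers was 13.95 to 14.38 in WD SW and 13.08 to 14.10 in CD. Of 8 sinusoidal endothelial markers 7 were tested, 1 was higher (Lyve1), 1 lower (Kdr), and their sum was 11.77 to 12.24 in WD SW and 11.49 to 12.25 in CD. Of 17 acute phase genes 15 were tested, 1 was higher and 5 lower, counts that include CD replicates 3 and 4 and were not repeated without them. Saa1, which did not pass, was 9.31 to 11.26 in WD SW. It was 13.21 and 13.99 on CD replicates 3 and 4, but 7.69, 6.42 and 7.18 on CD replicates 1, 2 and 5. Crp, which was called lower, was 12.73 to 13.02 in WD SW and 13.30 to 14.07 in CD. Of the 5 hepatocyte markers 2 were lower, Alb (-1.93, adjusted p = 4.75e-05) and Serpina1a (-1.10, adjusted p = 0.000115). The Alb probe was dim for so abundant a liver transcript, with means of 7.06 in WD SW and 8.99 in CD, against 14.73 and 14.76 for Ttr. How well this probe reads albumin was not tested. The part of blood and of these cells in the differences above was not tested.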

How the data were processed

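Liver RNA of 10 mice, 5 per diet by the sample labels, was profiled on Illumina bead arrays. The authors deposited unnormalized probe signals, a linear intensity without background subtraction, and a table of intensities they had normalized by a method not given in the sources used here. The first gave all main values and the second an alternative. Signals were background corrected (normexp, offset 16, all probes), log2 transformed and quantile normalized, which forces 1 distribution on all arrays and would hide a shift of most genes. A probe was detected where it exceeded the mode of the array's log2 signals (kernel bandwidth 0.02) at a one-sided normal p of 0.05, with the spread taken from signals below the mode, and probes detected on at least 5 arrays were tested. Diets were compared with limma 3.58.1 in R 4.3.3 (moderated linear model, no covariates) with Benjamini-Hochberg adjustment over all 17368 probes, or over 10187 genes for the lists, at 0.05. Within-array differences between 2 probes were tested by exact permutation, with arrays taken as exchangeable. The sample titles carried the numbers 5, 5, 7, 7 and 7 on WD SW replicates 1 to 5. On CD replicates 1 to 5 they were 12, 12, 13, 13 and 14. The labels do not give their meaning, so whether arrays that share a number are independent is not known. The fits were run on simulated data with independent normal noise and known added shifts. That simulation held no brightness difference between diets and no arrays linked by title number, so it does not address either.

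Probes were named through the platform annotation. Of 34885 probes with 1 gene symbol, 34807 matched RefSeq (GRCm38.p6). Promoters came from RefSeq and were aligned with Biopython 1.88 in Python 3.11.15. For a gene at background throughout one diet, a lower bound of the fold is given, in which each dim array enters with its own signal or its lowest detected signal, whichever is higher. Replicate numbers only name arrays, nothing beyond the labels says how the animals were housed, p-values therefore reflect only how these samples spread, and the number of arrays limits precision. The genes and lists were chosen with earlier results of these data known. All probes of the 10 genes are named, and from each list up to 3 genes called higher and 3 called lower by size. Tmprss6, Hjv, Bmp2, Smad7, Erfe and the alternative probes are named beside them and were chosen after their values were seen. Alternatives covered background correction, scaling, filter, probe choice, variance model, array weights, array brightness, the number in the sample titles as a random block, control arrays and left-out arrays.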

Additional observations from a re-analysis of the deposited data

How the results depend on the processing

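Each of the 16 tested probes was refitted under up to 26 alternatives, 10 of which left out 1 array, which gave 408 values. Of these, 344 kept direction and side of the threshold, 29 lost the call, 7 gained one and 28 turned direction. Trf kept its call in all 26 and Hamp2 in 25 of 26. The Hamp2 minus Hamp difference kept its call in all alternatives run on it (3.14 to 4.07), as did the Hfe probe difference (0.74 to 1.18). In the main analysis neither difference overlapped between the diets, so leaving out arrays could hardly end these calls and is no check on them. Neither was run with the brightness covariate, array weights, the title number as a block or CD replicate 1 alone, among others. Both median scalings give the same within-array difference by construction, and the Hfe pair was chosen after its values were seen. Median scaling over all probes put the median difference of tested probes at 0.46 and called 8424 probes, 97.3% of them higher. Scaling over the tested probes, added after the data were seen, put it at -0.24 and called 8201, 27.4% of them higher, against 55% of 5417 in the main analysis. Testing only probes detected on all 10 arrays gave 41.8% higher and a median of -0.11. Relative to the median, Hamp lay at -0.69 in the main analysis and at -0.89 under these scalings, which give the same relative value by construction. With 1 probe per gene 2996 were called. With array brightness as a covariate 823 probes were called, 1 of them among the iron genes (Trf), and against CD replicate 1 alone, its spread assumed to be that of the WD SW arrays, 1614 and 2.

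Reversed differences, none of them of Hamp, Hamp2, Trf or Slc40a1, were as follows. Median scaling gave Tfrc ILMN_2860804 0.80, Tfr2 ILMN_2450491 0.46, Hfe ILMN_2870696 0.23 and 3 Cp probes 0.49, 0.51 and 0.28. Scaling over tested probes gave Tfrc ILMN_2860804 0.10, Fth1 ILMN_2876066 -0.41 and Fth1 ILMN_2876071 -0.63. Cyclic loess gave Tfrc ILMN_2860804 0.083 and Fth1 ILMN_2876071 -0.086, and the authors' values gave Fth1 ILMN_2876071 -0.11. The brightness covariate gave Tfrc ILMN_2860804 0.12 and 3 Cp probes 0.38, 0.030 and 0.45. The title number as a block gave Tfrc ILMN_2860804 0.019. CD replicate 1 alone gave Tfrc ILMN_2860804 0.35 and 2 Cp probes 0.11 and 0.094. Leaving out CD replicates 3 and 4 gave Tfrc ILMN_2860804 0.12 and 2 Cp probes 0.24 and 0.30. Leaving out single arrays gave -0.10 to 0.14 for Tfrc ILMN_2860804 and -0.028 to 0.24 for Tfrc ILMN_2619848. Of 641 such values for the 25 named list genes, 561 stayed, 75 lost the call and 5 turned, all with median scaling (Slc11a2 0.13, Flvcr1 0.033, Cpox 0.089, Blvra 0.30, Nfu1 0.31). The cause of these changes was not tested. No paired analysis was possible because the labels give no replicate numbers shared by the diets. Dim signals such as those of Hamp2 in CD lie near background, which limits the precision of their fold changes.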
